A study of Homo sapiens with 43 samples.

Results

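The epidermal growth factor (EGF) family and its receptors were followed in 2 cancer cell lines and in derivatives of them that can stay latent in mice. The 9 genes are the receptors EGFR and ERBB3 and the ligands AREG, EREG, HBEGF, TGFA, EPGN, BTC and NRG1. They were chosen by symbol, out of 18085 gene rows for H2087 and 25369 for HCC1954, and all 9 have a row in both lines. A gene whose mean over the libraries of a line was under 10 normalized counts is given as not measured. By this rule 8 of the 9 were measured in H2087, where EPGN averaged 2.37, and 8 of the 9 in HCC1954, where AREG averaged 5.11.

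RNA was sequenced from 2 established human cancer cell lines, H2087 of the lung and HCC1954 of the breast. Latency-competent cells (LCC) are derivatives of these lines that were isolated from mouse organs labelled BLI-negative. LCC and parental cells were grown below confluence for 48 h in mitogen-low medium (MLM) or mitogen-rich medium (MRM), and the labels give no other treatment or engineered allele. The groups were H2087 LCC in MLM and in MRM (6 libraries each, 1 per derivative LCC1 to LCC6), H2087 parental in MLM and in MRM (2 each), HCC1954 LCC in MLM and in MRM (4 each, 2 from LCC2 and 2 from LCC1) and HCC1954 parental in MLM and in MRM (3 each). Nothing in the labels says that libraries of a group come from separate cultures, so the p-values reflect how these libraries differ from each other, which may be technical, and each derivative is a single line.

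EGF family ligands are made as membrane proteins and are released by metalloproteases of the ADAM family. TGFA, AREG and EPGN bind EGFR, EREG, HBEGF and BTC bind EGFR and also ERBB4, and NRG1 binds ERBB3 and ERBB4. Bound receptors pair with each other, and ERBB2, which has no ligand of its own, is a frequent partner. ERBB3 has little kinase activity and signals mainly to phosphoinositide 3-kinase through such partners, while EGFR signals strongly to RAS and ERK.

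AREG, EREG, EPGN and BTC lie close together on chromosome 4, and the 250 bases upstream of their start sites are shown because these neighbouring ligands are each described below. The sequences are from RefSeq, assembly GRCh38.p14, written 5′ to 3′ in the direction of transcription, with matches to the motifs searched in capitals. The windows are chr4:74444886-74445135 on the plus strand for AREG, chr4:74364895-74365144 on the plus strand for EREG, chr4:74308220-74308469 on the plus strand for EPGN and chr4:74794524-74794773 on the minus strand for BTC.
AREG: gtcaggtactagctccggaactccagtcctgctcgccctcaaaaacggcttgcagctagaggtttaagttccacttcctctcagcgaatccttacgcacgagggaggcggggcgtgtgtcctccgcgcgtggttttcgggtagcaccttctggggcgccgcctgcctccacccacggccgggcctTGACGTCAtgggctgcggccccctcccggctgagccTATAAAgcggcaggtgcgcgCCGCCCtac
EREG: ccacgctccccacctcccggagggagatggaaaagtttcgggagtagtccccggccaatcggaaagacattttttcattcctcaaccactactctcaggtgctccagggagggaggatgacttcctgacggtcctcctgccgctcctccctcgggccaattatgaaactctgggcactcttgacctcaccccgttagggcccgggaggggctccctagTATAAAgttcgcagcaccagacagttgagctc
EPGN: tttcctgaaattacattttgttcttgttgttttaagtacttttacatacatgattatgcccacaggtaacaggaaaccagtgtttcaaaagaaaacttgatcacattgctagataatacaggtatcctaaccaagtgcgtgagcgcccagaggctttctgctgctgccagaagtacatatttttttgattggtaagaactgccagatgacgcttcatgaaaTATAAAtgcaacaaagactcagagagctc
BTC: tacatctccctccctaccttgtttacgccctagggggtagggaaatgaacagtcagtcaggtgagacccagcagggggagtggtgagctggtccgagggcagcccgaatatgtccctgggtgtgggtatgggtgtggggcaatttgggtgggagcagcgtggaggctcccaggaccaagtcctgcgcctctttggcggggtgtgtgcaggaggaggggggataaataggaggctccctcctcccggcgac
The motifs were the cyclic AMP response element TGACGTCA, the AP-1 element TGANTCA, the TATA box TATAAA and the GC box GGGCGG, each on both strands. The AREG window held the cyclic AMP response element 65 to 58 bases before the start, a TATA box from 29 to 24 and a GC box from 9 to 4. The EREG window held a TATA box 32 to 27 bases before the start, and the EPGN window held one from 29 to 24. The BTC window held none of the 4 motifs. Of 35116 RefSeq promoter windows of this length, 1.65% held the cyclic AMP response element, 6.57% the AP-1 element, 10.7% the TATA box and 42.6% the GC box. A match is a description of these letters and not of a bound factor.

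Depth was 44.65 to 53.99 Mreads (megareads, from the recovered counts) in H2087 LCC libraries in MLM, 50.51 to 55.65 Mreads in parental libraries in MLM, 16.19 to 20.85 Mreads in LCC libraries in MRM and 12.13 to 18.11 Mreads in parental libraries in MRM, so depth moved with the medium. HCC1954 LCC libraries had 24.93 to 28.12 Mreads in MLM and parental libraries 24.85 to 26.66 Mreads, and in MRM they had 28.8 to 39.87 Mreads and 32.14 to 44.71 Mreads. All 6 epithelial markers fixed for the check (KRT8, KRT18, KRT19, EPCAM, CDH1, CLDN4) averaged at least 10 in every group of both lines. KRT7 led the lung markers in both lines, at 22427 in H2087 and 78102 in HCC1954, so it does not mark the lung line. NKX2-1, NAPSA and SFTPB averaged higher in H2087 (4280, 186 and 1010, against 513, 36.0 and 12.4). MUC1 averaged lower (3989, against 8081), and SFTPC was near 0 in both (0.605 and 1.85). ERBB2 averaged 199133 normalized counts in HCC1954, where it is known to be amplified, and 1208 in H2087. Some libraries stood apart. In MRM the H2087 libraries LCC5 and LCC6 lay close together, with a chi-square of 6.93 per degree of freedom over genes, against 25.9 or more for each other pair of that group. It is thus in doubt that these MRM libraries come from separate derivatives. Counts of derivatives and tests with the derivative as a block take the labels as given. In MLM the LCC5 and LCC6 libraries stood at 55.7, within the 52.3 to 156 of the pairs of that group. HCC1954 LCC1_2 in MRM stood far from LCC1_1 (115, against 2.10 for the LCC2 pair), and HCC1954 parental 3 in MLM stood far from the other two parental libraries (62.9 and 63.1, against 7.57 between those).

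In H2087 the ligands AREG and EREG were lower in MLM in both cell types. The LCC libraries held 666 to 893 normalized counts of AREG in MLM (median 768) and 2149 to 5449 in MRM (median 3711). The parental libraries held 659 and 691 in MLM and 1823 and 1574 in MRM. Every MLM library was below every MRM library in both cell types. The log2 fold change (MLM minus MRM) was -2.22 ± 0.16 (SE) in LCC cells and -1.33 ± 0.28 in parental cells, with adjusted p = 3.07e-07 and 0.00191 (limma). AREG encodes amphiregulin. The GRCh37 annotation is known to hold a near-identical copy of it, AREGB, and counting could have split reads between both, so its level is uncertain.

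EREG, which encodes epiregulin, held 10335 to 11863 normalized counts in LCC libraries in MLM (median 10995) and 22916 to 41211 in MRM (median 28783). In parental libraries it held 10295 and 9884 in MLM and 29667 and 27185 in MRM. The media did not overlap in either cell type. EREG fell in MLM, with a log2 change of -1.41 ± 0.11 in LCC cells (adjusted p = 3.78e-07) and of -1.49 ± 0.19 in parental cells (adjusted p = 3.05e-05, limma). LCC and parental libraries lay close together in each medium, with an LCC minus parental difference of 0.13 ± 0.07 in MLM and 0.04 ± 0.20 in MRM (adjusted p = 0.279 and 0.900). By the smallest root mean square difference of centred log2 profiles over the 16 H2087 libraries, the genes most like EREG were XBP1 (0.133), SLC3A2 (0.158) and SLC1A5 (0.188), against 0.736 for the spread of EREG about its own mean.

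Over all 8 measured members, the media comparison in H2087 LCC cells called 0 higher and 4 lower in MLM (AREG, EREG, EGFR, BTC), where 37.4% of all 12535 genes tested were called (18.5% higher and 18.9% lower, which is 2323 and 2368 genes, or 3672 and 1878 when libraries were scaled to equal totals). The media did not overlap for 3 of the 8, beside 16.1% of all genes. In parental cells 1 member was called higher (NRG1) and 4 lower (AREG, EREG, TGFA, EGFR), where 38% of all genes were called (20.1% higher and 17.9% lower). With 2 libraries a side the media did not overlap for 8 of 8, beside 87% of all genes. The member median was -0.78 in LCC and -0.57 in parental cells, beside 0.01 and 0.04 over all genes tested. In bulk RNA, a change in every cell and a change in the number of cells that express a gene cannot be told apart. The sum of the fibroblast markers, led by COL1A1, ran lower in MLM too, with overlap in LCC libraries. It was 273 to 684 in LCC libraries in MLM and 474 to 954 in MRM. In parental libraries it was 322 to 369 in MLM and 1030 to 1086 in MRM. COL1A2, COL3A1, DCN and LUM averaged under 10 in H2087, so the sum rests mainly on COL1A1, PDGFRA and PDGFRB. The part of these markers in the medium results was not tested.

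**Figure D1:**
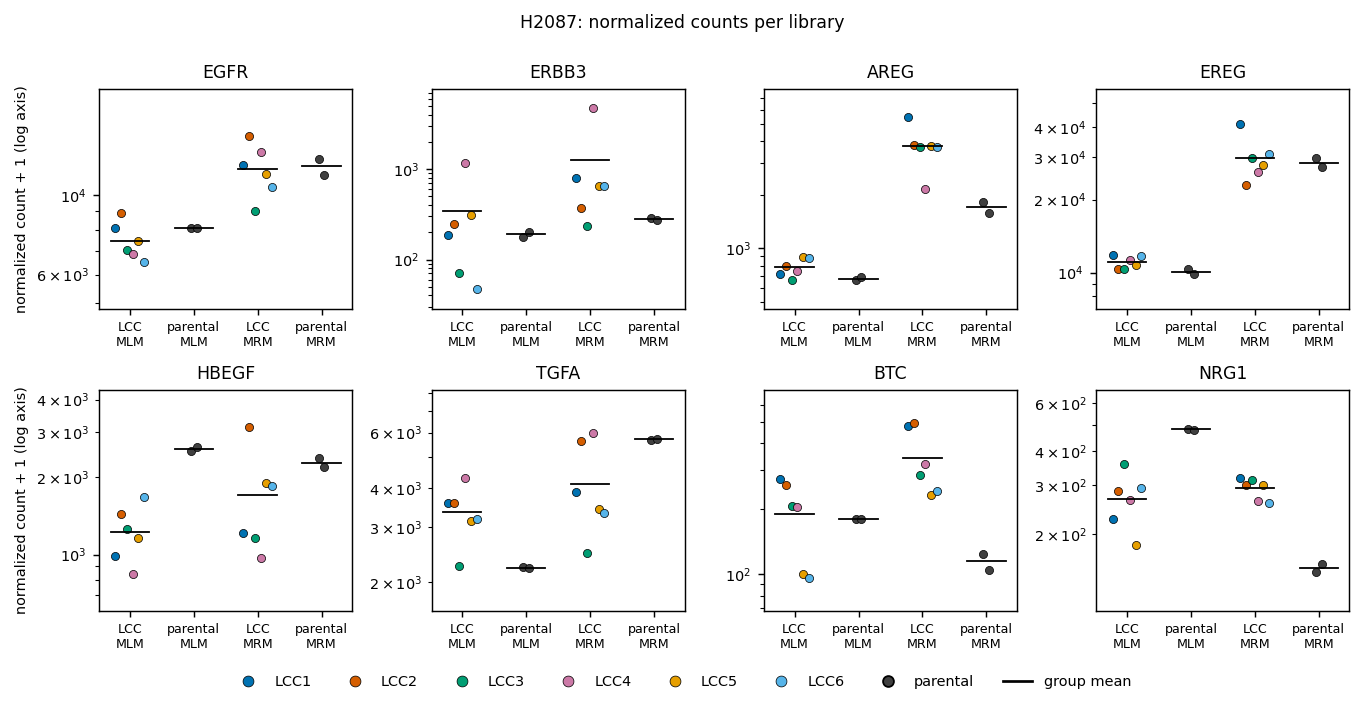
Normalized counts plus 1 (log axis) of the 8 measured genes in each H2087 library, by cell type and medium. Points are libraries, colours mark the LCC derivatives and black lines are group means. AREG and EREG separate by medium, while NRG1 is near one level in LCC libraries in both media and splits into 479 to 482 in MLM and 144 to 154 in MRM in parental libraries.

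EGFR itself also stood lower in MLM in H2087. LCC libraries held 6519 to 8881 normalized counts in MLM (median 7217) and 8999 to 14604 in MRM (median 11784). Parental libraries held 8106 and 8085 in MLM and 12617 and 11389 in MRM. The media did not overlap, and each of the 6 derivatives was lower in MLM. EGFR fell in MLM, with a log2 change of -0.65 ± 0.11 in LCC cells (adjusted p = 0.000238) and of -0.57 ± 0.18 in parental cells (adjusted p = 0.0246, limma), and the parental call was lost without any 1 of the 4 parental libraries (adjusted p = 0.0539 to 0.143). LCC and parental cells did not differ by a call in EGFR in either medium (-0.13 ± 0.11 in MLM and -0.04 ± 0.17 in MRM, adjusted p = 0.513 and 0.897).

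TGFA, which encodes transforming growth factor alpha, held 2262 to 4310 normalized counts in LCC libraries in MLM (median 3378) and 2472 to 5984 in MRM (median 3652). Parental libraries held 2235 and 2221 in MLM and 5696 and 5707 in MRM. The parental libraries were thus below all 6 LCC libraries in MLM, and in MRM above all but LCC4. The medium change was -0.26 ± 0.20 in LCC cells (adjusted p = 0.326) and -1.36 ± 0.34 in parental cells, where TGFA was called lower in MLM (adjusted p = 0.00619, limma). With the derivative as a block, the LCC change was called (adjusted p = 0.0166, limma), with TGFA lower in MLM in 6 of 6 derivatives. LCC6, whose MRM library is in doubt, had the smallest of these differences (-0.06).

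**Figure D2:**
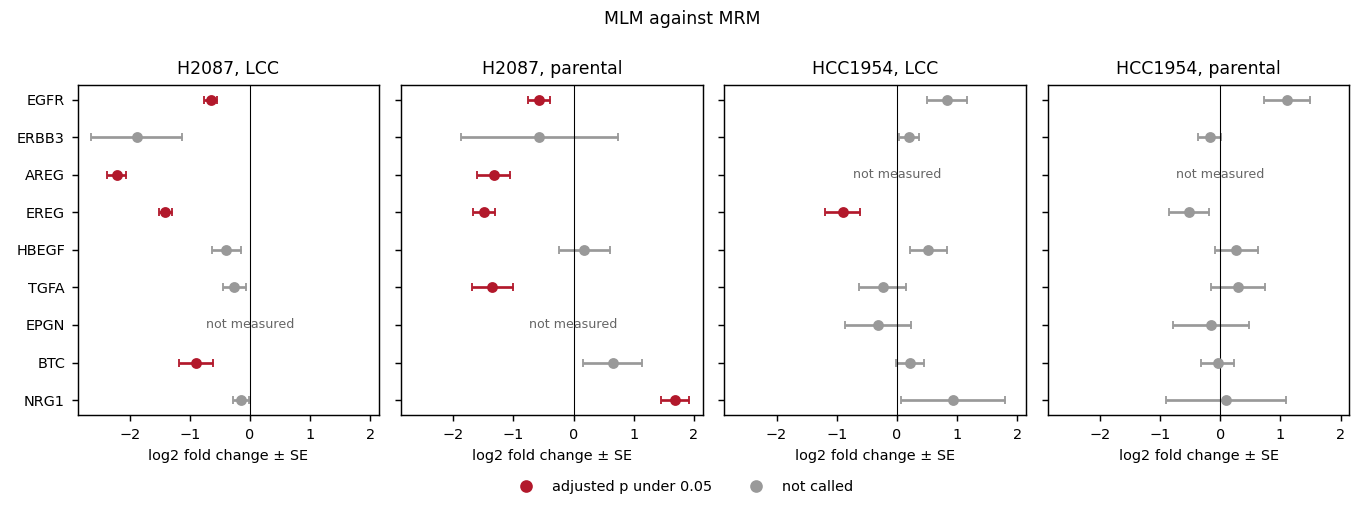
Log2 fold change of MLM minus MRM with its standard error for each gene, by line and cell type, all on 1 axis scale. Red points have an adjusted p under 0.05 in limma. AREG (-2.22 and -1.33) and EREG (-1.41 and -1.49) lie left of 0 in both H2087 cell types, and EREG is the 1 gene called in HCC1954 LCC cells.

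NRG1, the neuregulin that binds ERBB3, behaved differently in LCC and parental cells of H2087. In MLM it held 181 to 359 normalized counts in LCC libraries (median 275), against 482 and 479 in parental libraries. In MRM it held 258 to 319 in LCC libraries (median 300.3), against 144 and 154 in parental libraries. All LCC libraries thus lay below both parental libraries in MLM and above both in MRM. NRG1 was lower in LCC cells in MLM (log2 change -0.87 ± 0.23, adjusted p = 0.0425) and higher in MRM (0.97 ± 0.14, adjusted p = 0.00419). The difference of these effects was -1.84 ± 0.27 (adjusted p = 0.000743, limma), and NRG1 was the 1 member of 8 called in that test, where 10.7% of all genes were called (4.08% higher and 6.64% lower). Parental NRG1 rose in MLM by 1.69 ± 0.23 (adjusted p = 7.51e-05), and the LCC change between media was -0.15 ± 0.13 (adjusted p = 0.403).

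Between LCC and parental cells of H2087 in MLM, 0 members were called higher and 2 lower (HBEGF and NRG1), where 13.5% of all genes tested were called (4.9% higher and 8.56% lower, which is 614 and 1073 genes, or 457 and 1560 when libraries were scaled to equal totals). LCC and parental libraries did not overlap for 4 of the 8, beside 36.1% of all genes. The LCC libraries held 841 to 1669 normalized counts of HBEGF (median 1211), against 2526 and 2625 in parental libraries. All 6 LCC libraries lay below both parental ones. HBEGF, the heparin-binding ligand, was lower in LCC cells, averaging 1225 ± 300 against 2575 ± 69.6 in parental cells (SD), with a log2 change of -1.11 ± 0.23 (adjusted p = 0.0195, limma). In MRM the groups overlapped, as LCC2 held 3128 while the other derivatives held 973 to 1890, against 2367 and 2184 in parental libraries, and the difference was -0.54 ± 0.39 (adjusted p = 0.383). TGFA was higher in all 6 LCC libraries in MLM without a call (0.56 ± 0.20, adjusted p = 0.108). It was called without LCC3 (0.67, adjusted p = 0.0186) and by DESeq2 (0.58, adjusted p = 0.0327).

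In MRM, 3 of 8 members were called higher in H2087 LCC cells (AREG, BTC, NRG1) and 0 lower, where 14.4% of all genes were called (8.7% higher and 5.71% lower, which is 1091 and 716 genes, or 822 and 1184 when libraries were scaled to equal totals). The groups did not overlap for these 3, beside 37.8% of all genes. AREG held 2149 to 5449 normalized counts in LCC libraries, against 1823 and 1574 in parental libraries, a difference of 1.09 ± 0.28 (adjusted p = 0.0334). BTC, which encodes betacellulin, held 230 to 493.2 (median 303) in LCC libraries, against 123 and 104 in parental libraries, a difference of 1.51 ± 0.32 (adjusted p = 0.0178, limma). For both ligands all LCC libraries lay above both parental libraries. In MLM the BTC groups overlapped, with 95.4 to 272 in LCC libraries and 179 and 178 in parental libraries (-0.04 ± 0.43, adjusted p = 0.963). The lowest values there were LCC5 and LCC6, at 99.1 and 95.4.

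All 5 of these H2087 calls (HBEGF and NRG1 in MLM, AREG, BTC and NRG1 in MRM) were lost without either parental library (adjusted p = 0.0536 to 0.269), where the lone parental library is assumed to vary like the LCC ones. The AREG call was also lost without LCC3, LCC5 or LCC6 (adjusted p = 0.0544, 0.0628 and 0.0565), and the NRG1 call in MLM without LCC1 or LCC4 (adjusted p = 0.0768 and 0.0604). The summed epithelial markers, led by KRT18 and KRT8, were also higher in LCC libraries. They stood at 134755 to 304316 in MLM, against 127648 to 133907 in parental libraries, and at 145809 to 415264 in MRM, against 111742 to 124317. Single markers were not compared between groups and need not follow the sum. Over all H2087 libraries CDH1 ran from 19.9 to 15534 and EPCAM from 2749 to 35191. Fibroblast markers, of which 3 of 7 averaged at least 10 in H2087, were led by COL1A1. They summed to 474 to 954 in LCC libraries in MRM, against 1030 to 1086 in parental libraries, where COL1A2, DCN and LUM were at 0. The part of all these markers in the ligand differences was not tested.

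The LCC effect on AREG, TGFA and BTC differed between media by -0.89 ± 0.32, 1.10 ± 0.39 and -1.55 ± 0.57 (MLM minus MRM), without a call (adjusted p = 0.0895, 0.0884 and 0.0927). With library names as a block they were called (adjusted p = 0.0404, 0.000988 and 0.00137), although parental libraries share only a number. In LCC cells alone BTC fell in MLM (-0.90 ± 0.28, adjusted p = 0.0212, limma), lower in 6 of 6 derivatives. LCC6, whose MRM library is in doubt, had the largest of these differences (-1.33). The BTC call was lost without LCC1 in MRM (adjusted p = 0.0513, limma). In parental cells BTC differed by 0.65 ± 0.49 (adjusted p = 0.318).

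**Figure D3:**
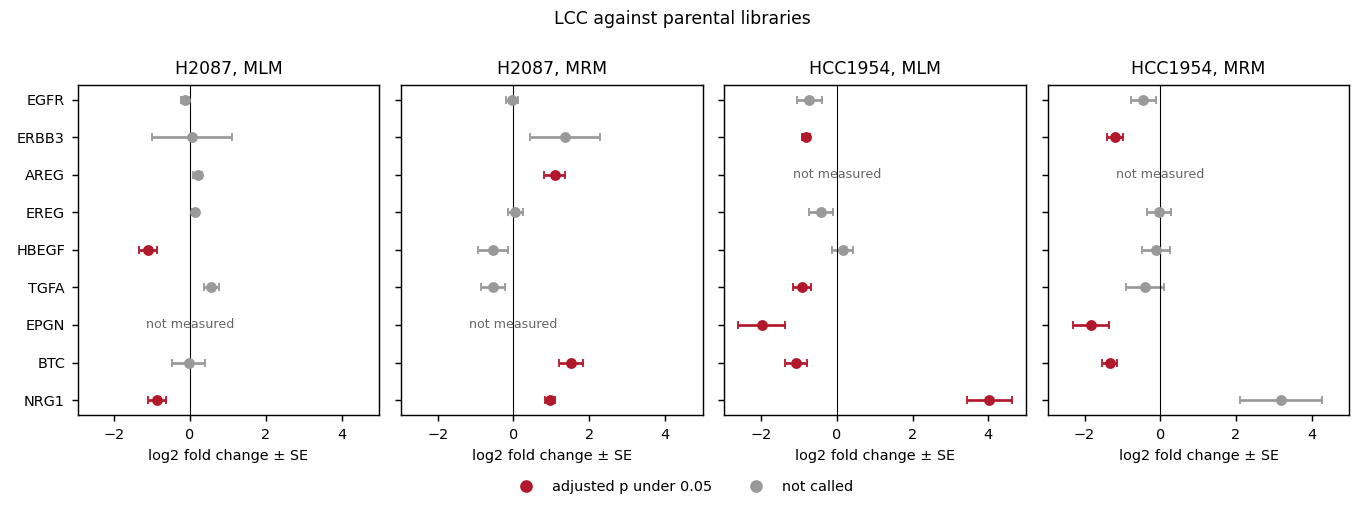
Log2 fold change of LCC minus parental with its standard error for each gene, by line and medium, all on 1 axis scale. Red points have an adjusted p under 0.05 in limma. In H2087 NRG1 lies at -0.87 in MLM and 0.97 in MRM, and in HCC1954 ERBB3, EPGN and BTC lie left of 0 in both media. The position of NRG1 in HCC1954 depends on the pseudocount, since the parental libraries held 1 read per medium, and its test there is not used.

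ERBB3 varied widely between the H2087 derivatives. In MLM LCC4 held 1187 normalized counts, LCC5 308, LCC2 246, LCC1 188, LCC3 70.5 and LCC6 45.5, against 178 and 201 in parental libraries. In MRM LCC4 held 4793, LCC1 799, LCC6 660.0, LCC5 658, LCC2 371 and LCC3 232, against 288 and 274 in parental libraries. LCC4 was the highest derivative in both media, and in MRM LCC6 and LCC5 stood at nearly the same level while in MLM they were far apart. The LCC minus parental difference was 0.04 ± 1.06 in MLM and 1.36 ± 0.93 in MRM (adjusted p = 0.985 and 0.350). ERBB2, the partner of ERBB3, was also highest in LCC4, at 1876 in MLM and 4611 in MRM, and lowest in LCC3, at 246 and 472.

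ERBB3 was lower in MLM in 6 of 6 derivatives, with log2 differences of -3.83 to -0.59 (median -1.86). Without a block the change of -1.89 ± 0.75 was not called (adjusted p = 0.0622, limma). With the derivative as a block it was called (adjusted p = 0.000798). The largest of these differences was that of LCC6, whose MRM library is in doubt. It was also called by DESeq2 (adjusted p = 0.0478), without LCC3 in MRM (adjusted p = 0.0353) and without LCC4 in MLM (adjusted p = 0.0127). HBEGF was called with the block (-0.39, adjusted p = 0.0307) and not without it, with 5 of 6 derivatives lower in MLM. By the same measure of likeness, the genes closest to ERBB3 were CRB3 (0.504), PRRG4 (0.519) and TMC4 (0.524), against 1.53 for the spread of ERBB3 itself.

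**Figure D4:**
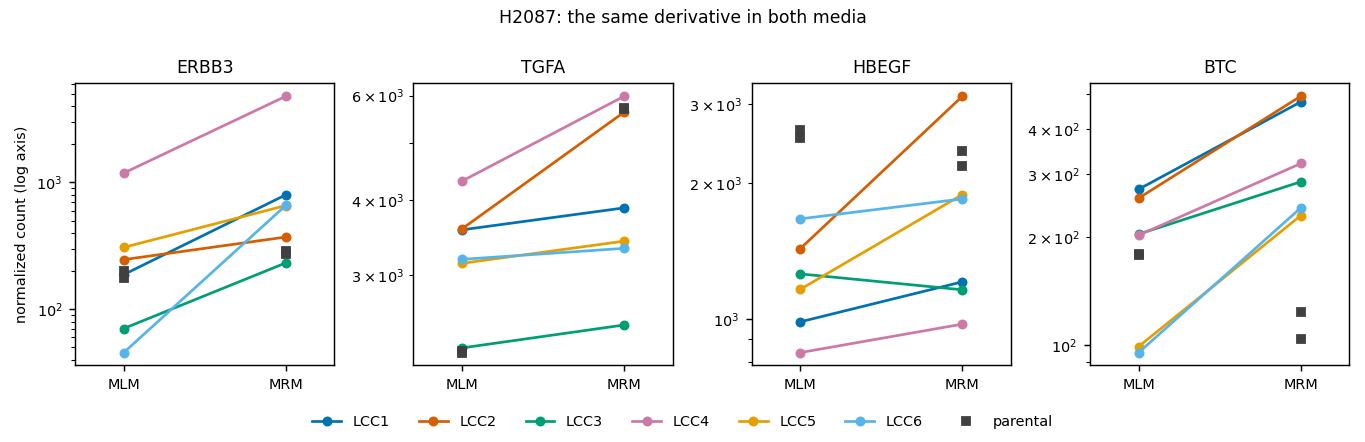
Normalized counts (log axis) of 4 genes in the 6 H2087 LCC derivatives, joined between MLM and MRM, with parental libraries as unjoined squares. ERBB3 is lower in MLM in every derivative and is highest in LCC4 (1187 in MLM and 4793 in MRM), and TGFA in parental libraries lies at the bottom in MLM and near the top in MRM.

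In HCC1954 the receptor ERBB3 stood lower in LCC cells in both media. In MLM LCC2_1, LCC2_2, LCC1_1 and LCC1_2 held 2875, 2796, 2577 and 2656 normalized counts, against 5319, 5175 and 3990 in parental libraries. In MRM they held 3061, 2895, 2089 and 1707, against 5368, 5478 and 5396 in parental libraries. No LCC library reached a parental one. ERBB3 was lower in LCC cells, with a log2 change of -0.81 ± 0.12 in MLM (adjusted p = 0.00193) and of -1.19 ± 0.20 in MRM (adjusted p = 0.00366, limma), and LCC2 alone and LCC1 alone were each called in both media (adjusted p = 5.11e-05 to 0.00224). LCC2 held more ERBB3 than LCC1 (0.39 ± 0.07, adjusted p = 0.00466).

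Summed epithelial markers, led by KRT8 and KRT18, were also lower in the LCC cells of HCC1954. They stood at 127310 to 163549 in LCC libraries in MLM, against 278980 to 308331 in parental libraries, and at 102445 to 179911 in MRM, against 274814 to 291390. Not every marker fell as far as the sum, as EPCAM ran only from 4972 to 7715 over all HCC1954 libraries. Fibroblast markers summed to 785 to 1116 in LCC libraries in MLM, against 529 to 641 in parental libraries, where COL1A2, DCN and LUM were at 0. COL1A1 led the sum, and of the 7 markers it alone averaged at least 10 over the HCC1954 libraries. The part of all these markers in the ERBB3 result was not tested. The 10 nearest tested neighbours of ERBB3 on chromosome 12 had a median LCC minus parental change of -0.54 in MLM and -0.56 in MRM. Over all genes tested the median was 0.00 in both. Of the 10, 6 were called lower in each medium, beside 18.5% of all genes in MLM and 19.3% in MRM. ERBB2 did not pass the test between LCC and parental cells (-0.39 ± 0.18 in MLM and -0.43 ± 0.18 in MRM, adjusted p = 0.132 and 0.0934). The genes most like ERBB3 over the 14 HCC1954 libraries were LGALS8 (0.104), ATP8B1 (0.109) and STAT5A (0.111), against 0.546 for its own spread.

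Of the 8 measured members in HCC1954, NRG1 passed the filter on low values only through the LCC libraries and is left out of the counts. Of the other 7, 0 were called higher in LCC cells in MLM and 4 lower (ERBB3, TGFA, EPGN, BTC), where 35.9% of all 15397 genes were called (17.4% higher and 18.5% lower, which is 2679 and 2856 genes, or 3365 and 2106 when libraries were scaled to equal totals). In MRM 0 were called higher and 3 lower (ERBB3, EPGN, BTC), where 38.7% were called (19.4% higher and 19.3% lower, which is 2983 and 2968 genes, or 3831 and 2142 when libraries were scaled to equal totals). The groups did not overlap for 5 of the 7 in MLM and 3 of the 7 in MRM, beside 46.5% and 51.8% of all genes. The median of the 7 was -0.81 in MLM and -0.45 in MRM, beside 0.00 over all genes tested in both.

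EPGN, which encodes epigen, had the largest fall among them. In MLM LCC2_1 and LCC2_2 held 60.6 and 68.9 normalized counts and LCC1_1 and LCC1_2 280.0 and 313, against 603, 528 and 527 in parental libraries. In MRM it held 101 and 95.3 in LCC2 and 326 and 284 in LCC1, against 618, 613 and 619 in parental libraries. Both derivatives were below the parental cells, LCC2 further than LCC1. The LCC minus parental change was -1.98 ± 0.62 in MLM and -1.83 ± 0.46 in MRM (adjusted p = 0.0414 and 0.0181, limma), and LCC2 minus LCC1 was -1.90 ± 0.10 (adjusted p = 7.27e-05). Fitted as separate groups, a choice made after the data were seen, LCC2 stood at -3.07 in MLM and -2.64 in MRM against parental cells and LCC1 at -0.90 and -1.02, all called (adjusted p = 1.53e-05, 1.55e-05, 0.00101 and 0.000274).

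The pooled EPGN call in MLM was lost without any 1 of the parental libraries or the LCC2 libraries (adjusted p = 0.0691 to 0.121) and in edgeR (adjusted p = 0.0634), and that in MRM without any 1 of the parental libraries (adjusted p = 0.0618 to 0.0640). The genes most like EPGN were ANO1 (0.157), ZNF43 (0.202) and LPAR1 (0.231), against 1.20 for its own spread. The 10 nearest tested neighbours of EPGN, EREG and BTC among them, had a median change of -0.56 in MLM and -0.26 in MRM. Of the 10, 4 and 3 were called lower, BTC included, beside 18.5% and 19.3% of all genes.

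BTC in HCC1954 held 62.9 and 52.7 normalized counts in LCC2 and 71.2 and 108 in LCC1 libraries in MLM, against 192, 158 and 112 in parental libraries. In MRM it held 68.1 and 59.5 in LCC2 and 75.0 and 45.3 in LCC1 libraries, against 151, 149 and 165 in parental libraries. The groups did not overlap, although LCC1_2 came close to parental 3 in MLM. BTC was lower in LCC cells, with a log2 change of -1.07 ± 0.29 in MLM (adjusted p = 0.0256) and of -1.33 ± 0.20 in MRM (adjusted p = 0.00209, limma). The MLM call was lost without parental 1 or 2 (adjusted p = 0.102 and 0.0849), without LCC1_1, LCC2_1 or LCC2_2 (adjusted p = 0.0520, 0.0559 and 0.0531), and in LCC1 alone (-0.77, adjusted p = 0.0514). LCC2 minus LCC1 was -0.24 ± 0.22 (adjusted p = 0.4005).

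**Figure D5:**
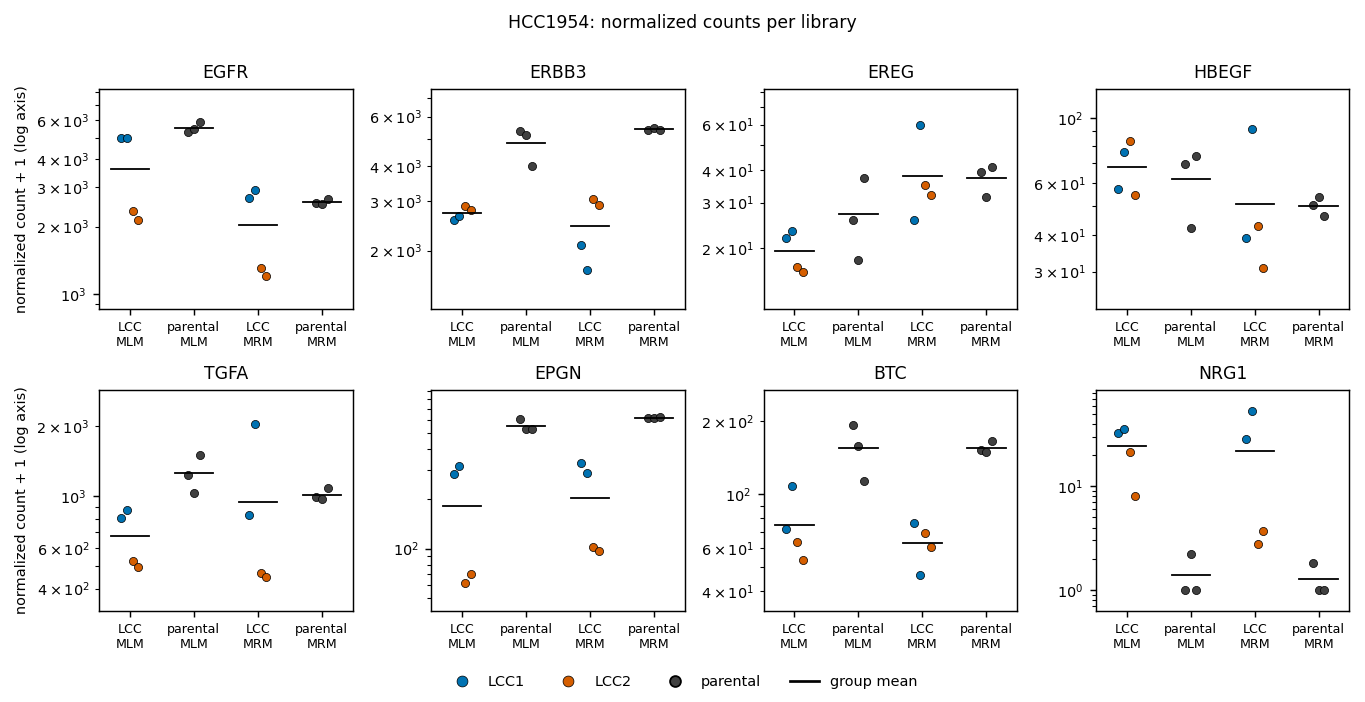
Normalized counts plus 1 (log axis) of the 8 measured genes in each HCC1954 library, by cell type and medium. Points are libraries, coloured by derivative, and black lines are group means. EGFR, TGFA and EPGN lie lower in LCC2 than in LCC1 libraries, and ERBB3 lies lower in all LCC libraries than in parental ones.

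EGFR in HCC1954 separated the LCC derivatives. In MLM LCC2 held 2347 and 2144 normalized counts and LCC1 4979 and 4958, against 5290, 5453 and 5883 in parental libraries. In MRM LCC2 held 1308 and 1207 and LCC1 2678 and 2923, against 2539, 2525 and 2649 in parental libraries. LCC2 lay below LCC1 and the parental cells in both media, and LCC1 lay near the parental level. LCC2 minus LCC1 was -1.15 ± 0.06 (adjusted p = 6.22e-05, limma). With both derivatives pooled, EGFR was not called against parental cells (-0.73 ± 0.33 in MLM and -0.45 ± 0.33 in MRM, adjusted p = 0.124 and 0.314). LCC2 alone was lower than parental cells (log2 change -1.30 in MLM and -1.03 in MRM, adjusted p = 3.14e-05 and 8.31e-05), and LCC1 alone stood at -0.16 and 0.12 (adjusted p = 0.105 and 0.187).

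Between media EGFR of HCC1954 stood higher in MLM, where that of H2087 stood lower. Within LCC2 and within LCC1 both MLM libraries lay above both MRM libraries, and all parental libraries in MLM lay above all in MRM. The change of 0.83 ± 0.33 in LCC cells and 1.11 ± 0.38 in parental cells was not called (adjusted p = 0.0863 and 0.0502), with the LCC derivatives, which differ in EGFR, in 1 group. With LCC1 and LCC2 as separate groups both were called (adjusted p = 2.44e-06 and 8.16e-07). The difference between the cell lines was not tested. The genes most like EGFR in HCC1954 were TANC2 (0.189), AHNAK2 (0.190) and CDYL2 (0.198), against 0.713 for its own spread.

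TGFA in HCC1954 held 525.9, 493.3, 809 and 869.9 normalized counts in LCC2_1, LCC2_2, LCC1_1 and LCC1_2 in MLM, against 1230, 1036 and 1502 in parental libraries. In MRM it held 465, 450.2, 826 and 2042 in these LCC libraries, against 989, 969 and 1089 in parental libraries. LCC1_2 in MRM, which stands apart over all genes, was the highest of all. TGFA was lower in LCC cells in MLM (log2 change -0.92 ± 0.24, adjusted p = 0.0216, limma), a call lost without parental 1 or 3 (adjusted p = 0.0695 and 0.0726). In MRM the difference was -0.40 ± 0.50 (adjusted p = 0.569) with LCC1_2 and -0.86 (adjusted p = 0.0238) without it. LCC2 held less TGFA than LCC1 (-1.11 ± 0.26, adjusted p = 0.0122).

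NRG1 in HCC1954 was near 0 in parental cells. In MLM the LCC2 libraries held 20.6 and 7.09 normalized counts and the LCC1 libraries 31.9 and 34.6, against 0, 1.22 and 0 in parental libraries. In MRM the LCC2 libraries held 1.75 and 2.70 and the LCC1 libraries 27.7 and 52.4, against 0.799, 0 and 0 in parental libraries. Every LCC library lay above every parental one. In reads, LCC libraries held 79 in MLM, against 1 in parental libraries, a depth-scaled ratio of 53.5 with an exact 95% interval of 9.34 to 2141, and 100 in MRM, against 1, a ratio of 76.8 with an interval of 13.5 to 3063. These intervals pool the reads of a group and cover counting error only, not differences between libraries. Of the 100 LCC reads in MRM, 94 were from LCC1. The other 6 were from LCC2, a ratio of 8.56 to parental cells with an interval of 1.04 to 394. NRG1 averaged 12.9 over all HCC1954 libraries and passed the filter on low values through the LCC libraries, with parental means of 0.405 in MLM and 0.266 in MRM. Its tests between cell types and the intervals above are therefore no support for a difference, and the tests are not used.

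Across the 7 members other than NRG1, LCC2 against LCC1 called 1 higher (ERBB3) and 3 lower (EGFR, TGFA, EPGN), where 51.8% of all genes were called (25.1% higher and 26.7% lower, which is 3864 and 4104 genes, or 5453 and 2830 when libraries were scaled to equal totals). The derivatives did not overlap for these 4, beside 31.7% of all genes. Over the same 7, the media comparison in HCC1954 called 0 higher and 1 lower in LCC cells. There 23% of all genes were called (12.1% higher and 10.9% lower). This is 1867 and 1679 genes, or 1298 and 2198 when libraries were scaled to equal totals. The media did not overlap for 1 of the 7, beside 23.5% of all genes. In parental cells the comparison called 0 of the 7, where 24.6% of all genes were called (13.4% higher and 11.1% lower). This is 2069 and 1715 genes, or 1571 and 2116 when libraries were scaled to equal totals. The media did not overlap for 3 of the 7, beside 59.4% of all genes. The call in LCC cells was EREG, at 16.0 and 15.2 (LCC2) and 20.9 and 22.3 (LCC1) normalized counts in MLM, against 34.0 and 31.1 (LCC2) and 24.7 and 58.6 (LCC1) in MRM. Each LCC library was lower in MLM (-0.90 ± 0.29, adjusted p = 0.0397), and the call was lost without LCC1_2 in MRM (-0.66, adjusted p = 0.0865), without any 1 of 5 other LCC libraries (adjusted p = 0.0569 to 0.0915) and without the filter on low values (adjusted p = 0.0619). HBEGF, at 53.7 to 82.3 in LCC libraries in MLM and 29.7 to 90.6 in MRM, was called without LCC1_2 in MRM (0.85, adjusted p = 0.0219) and not with it (0.52 ± 0.31, adjusted p = 0.245). The LCC effect did not differ between media by a call for any of these 7 members in HCC1954, where 0.156% of all genes were called (0.0649% higher and 0.0909% lower).

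The wider pathway was followed in 5 lists of 55 genes. The proteases and regulators of ligand shedding had 0 higher and 5 lower of 7 tested in MLM in H2087 LCC cells (median -0.75), and 1 higher and 3 lower in parental cells (median -0.58), where 37.4% and 38% of all genes were called. Of these, ADAM17, the main sheddase of AREG, TGFA and HBEGF, averaged 1593 normalized counts in LCC libraries in MLM and 3191 in MRM, and fell (-0.99 ± 0.07, adjusted p = 3.71e-07). ADAM10, the sheddase of BTC, averaged 3898 in MLM and 7549 in MRM, and fell (-0.95 ± 0.10, adjusted p = 8.88e-06). EGF itself fell in MLM in H2087, by a log2 change of -0.69 ± 0.24 in LCC cells (adjusted p = 0.0336) and of -1.99 ± 0.41 in parental cells (adjusted p = 0.00174, limma).

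The list labelled receptor restraint, whose genes need not all restrain the receptors, had 4 higher and 4 lower of 13 tested in MLM in H2087 LCC cells. In parental cells it had 3 higher and 4 lower, where 37.4% (LCC) and 38% (parental) of all genes were called. LRIG1, which promotes receptor degradation, averaged 1065 normalized counts in LCC libraries in MLM, against 452 in parental libraries (1.19 ± 0.27, adjusted p = 0.0257), and was not called in MRM (0.40 ± 0.27, adjusted p = 0.347). UBASH3B, a phosphatase that acts on tyrosine kinase signalling, averaged 2482 in LCC libraries in MLM, against 5054 in parental libraries (-1.07 ± 0.25, adjusted p = 0.0292). In MRM the UBASH3B difference was 0.47 ± 0.18 (adjusted p = 0.114), and the LCC effects differed between media by -1.54 ± 0.33 (adjusted p = 0.00864, limma). In the LCC against parental comparisons of H2087 all 5 lists together had 3 higher and 4 lower of 51 in MLM and 5 higher and 0 lower in MRM, which is 13.7% and 9.80%, beside 13.5% and 14.4% of all genes.

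In HCC1954 adaptors and kinases had 2 higher and 8 lower of 17 in LCC cells in MLM, and 2 higher and 7 lower in MRM, where 35.9% and 38.7% of all genes were called. PIK3R1, a regulatory subunit of phosphoinositide 3-kinase, averaged 1856 normalized counts in LCC libraries in MLM, against 7481 in parental libraries (-2.002 ± 0.35, adjusted p = 0.00419), and was not called in MRM (-1.01 ± 0.59, adjusted p = 0.210). GAB2, a docking adaptor, averaged 440.1 in LCC libraries in MRM, against 1258 in parental libraries (-1.54 ± 0.18, adjusted p = 0.000778), and was also called lower in MLM (-0.53 ± 0.10, adjusted p = 0.00513). The metalloprotease ADAM12 averaged 551 in LCC libraries in MRM, against 13.8 in parental libraries (5.12 ± 0.33, adjusted p = 8.53e-05), and SH3KBP1, an adaptor in receptor endocytosis, averaged 8763, against 2636 (1.63 ± 0.31, adjusted p = 0.00587). All 5 lists together had 7 higher and 17 lower of 53 in MLM and 8 higher and 17 lower in MRM, which is 45.3% and 47.2%, beside 35.9% and 38.7% of all genes.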

How the data were processed

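RNA from 31 samples of the series was listed, and 30 libraries with values were used. Not analysed here were H2087 parental 3 in MLM and 12 chromatin samples. The authors deposited 4 tables, 1 per line and medium, that give 1 normalized signal value for each gene in each library. Per the submitters' processing notes, the tools included R 3.1.2, DESeq2 1.8.1, HTSeq 0.6.1p1 and Bowtie2 2.2.4 and the builds were hg19 and GRCh37, with no role or order, and strand use in counting is not given in the sources used here. In 100% of the values the deposited signal was a whole read count divided by 1 size factor per library (tolerance 0.01 reads). Size factors recomputed over both media of a line by the median of ratios differed from the deposited ones by at most 1.15e-11, so the media share 1 normalization and were compared.

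Tests used limma 3.58.1 in R 4.3.3 on log2(value + 1), with a trended prior variance, two-sided, over all genes with a mean of at least 10 in the line (12535 in H2087 and 15397 in HCC1954). Adjustment was by Benjamini-Hochberg, and genes under 0.05 count as called. Fold changes are on the log2(value + 1) scale and understate low genes. LCC was set against parental within each medium, media and the difference of LCC effects in a fit of 4 groups, and LCC2 against LCC1 over the 8 HCC1954 LCC libraries. The code was also run on simulated reads with the same dispersion for all genes and libraries. Those reads lack the unequal spread of LCC and parental libraries, so they cannot show how the calls behave under it. Alternatives were no filter, a pseudocount of 5, equal library totals, edgeR 4.0.16 and DESeq2 1.42.0 on the recovered read counts, a replicate block and each library left out. LCC1 and LCC2 as separate groups were added after seeing the data. By their labels, same-named LCC libraries come from the same derivative. In H2087, where each derivative has 1 library per medium, their deviations from the group means correlated at 0.411 to 0.756. They were taken as pairs, although the lowest value was that of LCC6, whose MRM library is in doubt. In HCC1954 these deviations correlated at 0.507 to 0.698, which reflects the derivative that 2 libraries share. There LCC1_2 in MLM matched LCC1_1 in MRM better (0.549), so the number within a derivative was not taken to pair libraries. Parental numbers (0.051 in H2087, 0.018 to 0.116 in HCC1954) were not.

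The named genes were all members, ERBB2, up to 4 called pathway genes with the largest change per comparison, the 3 genes most alike in profile (members with a mean of at least 100 and a log2 SD of at least 0.5) and the 5 tested neighbours on each side. A subset is printed, and 1 gene of the lists is not reported here. Gene names matched the RefSeq table for 99.7% of the tested genes in H2087 and 97.2% in HCC1954. Members and lists were chosen with earlier results of these data known. Values of different genes were not compared, since transcript lengths were not used here.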

Additional observations from a re-analysis of the deposited data

Results flagged for a closer look

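The LCC effect on NRG1 in H2087 differed between media by -1.84 ± 0.27 (MLM minus MRM, adjusted p = 0.000743 in limma). NRG1 was lower in LCC cells in 6 of 6 libraries in MLM and higher in 6 of 6 in MRM.

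In 3 cases every LCC library lay on opposite sides of the parental libraries in the 2 lines, and the difference between lines was not tested. LCC and parental libraries did not overlap for 36.1% of all genes in H2087 and 46.5% in HCC1954 in MLM. In MRM these shares were 37.8% and 51.8%. The share of all genes on opposite sides in the 2 lines was not computed, so the 3 cases are not set apart from other genes. TGFA in MLM was higher in H2087 LCC cells (0.56, not called) and lower in HCC1954 LCC cells (-0.92, called). BTC in MRM was higher in H2087 LCC cells (1.51) and lower in HCC1954 LCC cells (-1.33), both called. NRG1 in MLM was lower in H2087 LCC cells (-0.87, called) and higher in HCC1954 LCC cells (4.03 as fitted). The second value depends on the pseudocount, because the parental libraries held 1 read, and NRG1 passed the filter in HCC1954 only through the LCC libraries, so it is no support for a difference between the lines. 

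ERBB3 in H2087 LCC4 stood far above the other derivatives on the scale of normalized counts. Its gap to the next library took a share of 0.77 of the whole range in MLM (1187, next 308) and of 0.876 in MRM (4793, next 799), above Dixon's critical value of 0.625. These were 2 of 32 combinations of member and group of 4 or 6 libraries, and chance flags about 1 in 20. On the log2 scale, which the tests use, 0 of the 32 were past it.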

How the results depend on the processing

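No member result changed direction past the threshold in the 1328 pairs of setting and result computed for the 88 member results. In 46 of these pairs the sign changed without a call in either fit. Of the 88 results, 31 changed their call in at least 1 setting. A pseudocount of 5 changed no member call, no filter ended 1, equal totals added 2, edgeR added 1 and ended 1, DESeq2 added 6 and the replicate block added 9 and ended none. Leaving out 1 library ended a call in 41 cases and added one in 14. The block also called BTC between media in H2087 parental cells (adjusted p = 0.0202) and EGFR in HCC1954 LCC and parental cells (adjusted p = 9.57e-05 and 6.34e-05), where libraries share only a number within a derivative or line.

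Counts of all genes called moved as follows, and the cause was not tested. H2087 LCC against parental in MLM had 1687 calls, 2885 in DESeq2, and 120 to 2399 with 1 library left out. H2087 in MRM ran from 140 to 2259, HCC1954 in MLM from 3626 to 5166 (8446 for LCC1 alone, 5535 pooled) and in MRM from 3663 to 7469. The lowest 2 H2087 counts were those without a parental library. Media counts with 1 library left out ran from 4150 to 4930 in H2087 LCC, 2851 to 3408 in H2087 parental, 2710 to 3870 in HCC1954 LCC and 2013 to 3576 in HCC1954 parental cells. In HCC1954 the replicate block gave 5720 in LCC (3546 without it) and 5816 in parental cells (3784 without it), and LCC1 and LCC2 as separate groups gave 7177 and 7278. The difference of LCC effects had 1344 calls in H2087, 3426 with the block and 426 to 1622 with 1 library left out. In HCC1954 it had 24, 13 with no filter, 12 in edgeR, 307 in DESeq2, 116 with the block, 1389 with separate derivatives and 0 to 50 with 1 library left out. LCC2 against LCC1 ran from 5695 to 11317. Equal library totals shifted the median of all genes by 0.114 and 0.126 (log2) in HCC1954 LCC against parental in MLM and MRM and by 0.142 for LCC2 minus LCC1, and by less than 0.1 in the other comparisons.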
